A study of Homo sapiens with 6 samples.

Results

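The nuclear genes of the mitochondrial respiratory chain were followed in the human neuroblastoma line SH-SY5Y after knockdown of the RNA-binding protein TDP-43. Members were taken by symbol: NDUFA, NDUFB, NDUFC, NDUFS and NDUFV genes, SDHA to SDHD, UQCR genes, COX4 to COX8 genes and ATP5 genes, with names that carry a hyphen left out. The rule gave 87 of the 26372 genes in the deposited table and used no measured value. Of these, 75 encode a subunit of complexes I to V that most cells use, 6 encode a tissue isoform of a complex IV subunit, 4 are pseudogenes or retrotransposed copies (UQCRBP1, UQCRHL, ATP5EP2 and ATP5L2), and ATP5S and ATP5SL carry the name only. A mean of 1 FPKM (fragments per kilobase of transcript scaled to the library's total, the deposited unit, which allows levels of genes to be compared per length) or more over the 6 libraries was required for testing, and 79 of the 87 members passed, all 75 main subunits among them. The knockdown arm was 3 libraries of SH-SY5Y cells carrying a stable lentiviral short hairpin RNA (shRNA) against TDP-43, and the control arm was 3 libraries carrying a control shRNA. Per the labels, hairpins were driven from a U6 vector and stable knockdown cells were kept under puromycin. Each arm bears a single hairpin name, so the hairpin, the infected population and the knockdown cannot be told apart. Whether the libraries of an arm come from separate cultures is not stated, and the p-values below therefore reflect the spread among the sequenced libraries, which may be technical.

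The respiratory chain sits in the inner mitochondrial membrane. Complexes I and II pass electrons from NADH and succinate to ubiquinone, complex III passes them to cytochrome c, complex IV passes them to oxygen, and complex V, the ATP synthase, uses the proton gradient that complexes I, III and IV build. Most subunits are encoded in the nucleus and imported, while the catalytic cores of complexes I, III and IV and the proton channel of complex V also need subunits encoded by mitochondrial DNA, which were not analysed here. Neurons depend heavily on this pathway for ATP.

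TARDBP, which encodes TDP-43, measured 21.9, 20.7 and 21.0 FPKM in the knockdown libraries and 50.3, 50.3 and 47.7 FPKM in the control libraries, a ratio of means of 0.428 (exact two-sided permutation p = 0.1, the smallest that 3 against 3 allows). Sequencing depth relative to the deepest library ran from 52.6% to 94.7% in the knockdown and from 84.6% to 100% in the control. The deposited FPKM summed to between 2123050 and 2449948 in the knockdown libraries and between 1182985 and 1226728 in the control libraries. Without the small RNAs that the equal column sums setting below leaves out, the sums were close. The factors that equalized them ran from 0.995 to 1.02 in the knockdown and from 0.987 to 0.993 in the control. This difference in composition goes with the arm, and its part in the results was not tested. The median SD of the tested members on the log2(FPKM + 1) scale was 0.0817 in the knockdown and 0.0551 in the control. The cells also differed in identity markers. For the marker counts that follow, 30.5% of all tested genes were called higher and 35.9% lower. Of 15 tested noradrenergic markers 11 were called higher and 2 lower. Summed levels of the noradrenergic markers were 1164 to 1289 FPKM in knockdown and 613 to 627 FPKM in control libraries. Those called lower were DBH and SLC18A1 (log2 fold changes -0.28 and -0.95). TH, which encodes the first enzyme of noradrenaline synthesis, was listed at 0 in all libraries. Of 18 mesenchymal markers 13 were called lower and 4 higher, with summed levels of 923 to 943 FPKM in knockdown and 2555 to 2592 FPKM in control libraries, with ANXA1 and CAV1 listed at 0 in the knockdown. The mesenchymal markers called higher were TWIST1, DCN, IGFBP3 and LUM (log2 fold changes 1.40, 2.96, 0.36 and 0.49). The part of these shifts in the results that follow was not tested.

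Respiratory chain genes moved by small amounts, mostly downwards on the scale of the deposited FPKM. Among the 79 tested members 38 were called lower, 12 were called higher and 29 were not called (limma, Benjamini-Hochberg adjusted p under 0.05 over 13434 genes). In this comparison 66.3% of all tested genes were called, 35.9% lower and 30.5% higher, against 63.3%, 48.1% and 15.2% of the tested members. The 3 knockdown values and the 3 control values did not overlap for 55 members (69.6%), against 70.8% of all tested genes. Only 7 members (8.86%) changed by at least 1.5-fold on the log2(FPKM + 1) scale and passed the test, against 25.4% of all tested genes, and NDUFC2 alone (1.27%) reached 2-fold, against 11.3%. The median log2 fold change was -0.12 over the members and -0.02 over all tested genes. In these bulk libraries fewer cells of a type and less RNA per cell cannot be told apart.

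The direction of the family as a whole depended on the scaling. After quantile normalization, which forces the same distribution of values on each library, the median of all tested genes moved by 0.11 to 0.09. The members' median became 0.10, and 35 members were called higher and 21 lower. Over all 13434 tested genes 5390 were called higher and 3769 lower. The difference between the members' median and that of all genes was -0.10 on the deposited scale and 0.01 after quantile normalization. Of the members' calls, 24.0% were higher on the deposited scale and 62.5% after quantile normalization, while the same share over all genes went from 45.9% to 58.8%. A fit corrected for the GC content of the transcripts gave 16 members higher and 34 lower. Calls that held in all 5 settings (deposited FPKM, median-of-ratios, quantile, equal column sums without 6 small RNAs, and the GC correction) were made for 20 members in the lower direction (25.3%) and 10 in the higher direction (12.7%), against 27.1% and 26.2% of all tested genes. The median of all tested genes moved by 0.0047 under median-of-ratios and by -0.028 under equal column sums. These settings thus lie close to the deposited scale and are no separate checks of it. Below, a call is termed stable only where it held in all 5 settings. Quantile normalization raised the value of each member called higher, for example ATP5G2 from 0.45 to 0.74 and UQCRH from 0.29 to 0.33. It was therefore a check mainly on the lower calls, of which 20 of 38 were stable, against 10 of 12 higher calls. Stable thus asks less of a higher call than of a lower call.

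**Figure D1:**
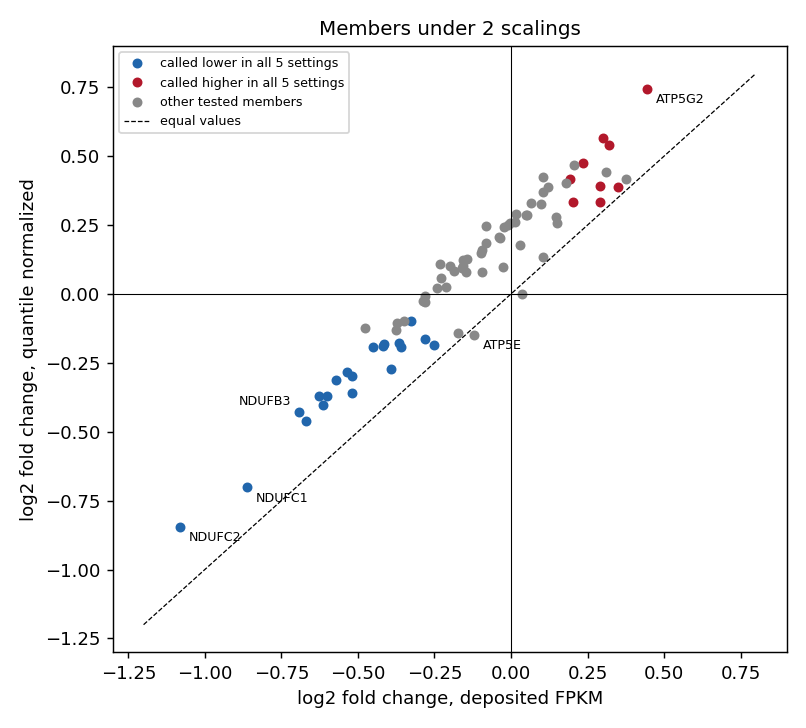
Log2 fold change of the tested members, 1 of them not shown (knockdown against control, log2(FPKM + 1) scale), on the deposited scale (x axis) and after quantile normalization (y axis); blue points were called lower and red points higher in all 5 settings, grey points were not. Most points lie above the dashed line of equal values, so members near 0 on the x axis turn positive on the y axis, whereas NDUFC2 and NDUFC1 stay at the lower end and ATP5G2 at the upper end on both axes.

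The promoters of some of these genes carry known elements. NRF1 (nuclear respiratory factor 1) and the ETS-family factor GABP are textbook activators of respiratory chain genes, and both bind short GC-rich motifs. RefSeq promoter windows (GRCh38.p14) matched 68 of the 87 members, and the 250 bases before the listed start were searched on both strands, in the window listed first where a gene had more than 1. The NRF1 core GCATGCG was found in 12 of 68 members (17.6%) and in 3.57% of 27305 promoters, the ETS core CCGGAAG in 16 members (23.5%) and 8.82% of promoters, and the YY1 core GATGGCG in 2 members (2.94%) and 2.38% of promoters. The NRF1 core was present in 8 of 33 members called lower, 1 of 9 called higher and 3 of 22 not called with a window. The ETS core was present in 6 of 33 called lower, 3 of 9 called higher and 7 of 22 not called. A match describes letters in a window and shows no binding. Whether a core goes with the direction of the calls was not tested. The NRF1 matches below are shown as examples, with 10 bases on either side. ATP5G2 was the only member with this core called higher, and ATP5I, NDUFA6, NDUFB4, SDHB and SDHD were among the 8 called lower. ATP5J, COX5B and NDUFS7 carried the core and were not called. For ATP5G2, which has 3 listed windows, the match stands before a start that lies inside the gene span given below. Capitals mark the core, and where it overlaps its own reverse complement both are in capitals.
ATP5G2 (chr12:53676107-53676134, minus strand): gcccgggtcaCGCATGCGctgagccttc
ATP5I (chr4:674336-674363, minus strand): ccgctgacggCGCATGCGtgcgcccagc
NDUFA6 (chr22:42090922-42090948, minus strand): ctgtagatgaGCATGCGcagcacccac
NDUFB4 (chr3:120596168-120596195, plus strand): gagcacttcgCGCATGCGcatatcaccg
SDHB (chr1:17054216-17054242, minus strand): agccaaatggGCATGCGccgctactgc
SDHD (chr11:112086754-112086781, plus strand): gctgtgtttgCGCATGCGcgacgggtgt
The ETS core, in capitals on either strand, likewise stood before UQCRH and NDUFB7, both called higher, and before ATP5H and SDHD, both called lower. In SDHD the ETS and NRF1 matches lie close together.
UQCRH (chr1:46303642-46303668, plus strand): gtgtgccgcaCTTCCGGccagatcgcc
NDUFB7 (chr19:14572074-14572100, minus strand): cctaaatgacCCGGAAGctgtgtctga
ATP5H (chr17:75047054-75047080, minus strand): cgggaagataCTTCCGGaaccagccct
SDHD (chr11:112086786-112086812, plus strand): cgcctctcgaCTTCCGGttcacccagc

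Complex I, the NADH dehydrogenase, is L-shaped, with a matrix arm that takes electrons from NADH and a membrane arm that pumps protons. It had the largest falls of the family. Of its 36 members 17 were called lower, 7 higher and 12 were not called, with a median log2 fold change of -0.13. Beside each count by complex or arm below, 35.9% of all tested genes were called lower and 30.5% higher on the deposited scale. After quantile normalization 9 were called lower and 17 higher, with a median of 0.12, so that the balance turned with the scaling. Stable calls were made for 9 members in the lower and 6 in the higher direction.

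The membrane arm held the largest falls of the complex. Of its 20 accessory subunits 11 were called lower, 4 higher and 5 were not called. NDUFC2 (chr11:78068297-78079862, GRCh38) and NDUFC1 (chr4:139289917-139302551) encode a pair of small subunits that sit in the proximal part of this arm, beside the mitochondrially encoded ND2. NDUFC2 measured 28.3, 25.3 and 28.8 FPKM in the knockdown libraries and 60.3, 58.2 and 59.0 FPKM in the control libraries, the largest fall of any member on the deposited scale and after quantile normalization. The groups lay far apart, and the log2 fold change was -1.08 (SE 0.0546, limma adjusted p = 3.82e-07), or -0.84 after quantile normalization. A separate entry for readthrough transcripts that join NDUFC2 to its neighbour KCTD14 stood at 0.340 FPKM or less in each library. NDUFC1 measured 12.8, 20.6 and 14.6 FPKM in the knockdown and 33.3, 26.4 and 28.6 FPKM in the control, a log2 fold change of -0.86 (SE 0.154, limma adjusted p = 0.00112). Its groups did not overlap, but its knockdown library 2 and control library 2 came close to each other.

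NDUFB3, an accessory subunit of the distal membrane arm, stood at 44.4, 43.0 and 45.3 FPKM in the knockdown and 74.0, 71.1 and 71.3 FPKM in the control, a ratio of means of 0.613 (limma adjusted p = 9.71e-07). Both groups were tight, with SDs of 1.17 and 1.65 FPKM. NDUFA8, a twin-cysteine subunit on the intermembrane-space side, stood at 29.2, 19.6 and 23.0 FPKM against 37.6, 40.1 and 36.9 FPKM (log2 fold change -0.67, SE 0.120). Knockdown library 1 was the highest of the knockdown values and still lay below each control value. The 11 NDUFB genes encode further accessory subunits of this arm, and 7 of them were called lower, 1 higher and 3 were not called. NDUFB3 and NDUFB2 were stable in the lower direction (-0.45 for NDUFB2), whereas the falls of NDUFB4, NDUFB5 and NDUFB6 (-0.48, -0.37 and -0.35) did not pass after quantile normalization (-0.12, -0.11 and -0.10). NDUFB1 was called lower (-0.20) and lost the call without knockdown library 3 (adjusted p = 0.0724) or control library 3 (adjusted p = 0.1003), and its value turned to 0.10 after quantile normalization. Antisense entries for NDUFA6, NDUFB2 and NDUFV2 stood at 1.78 FPKM or less in each library.

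Other membrane-arm subunits went the opposite way. NDUFB7 measured 76.0, 88.9 and 71.9 FPKM in the knockdown and 58.4, 66.1 and 66.8 FPKM in the control (log2 fold change 0.30, limma adjusted p = 0.011). NDUFA10, a subunit related to nucleoside kinases, measured 11.7, 12.7 and 12.1 FPKM against 9.45, 9.84 and 10.0 FPKM (log2 fold change 0.29, limma adjusted p = 0.00162). NDUFA13, also known as GRIM-19, was at 263 ± 17.8 FPKM (SD, n = 3) in the knockdown and 229.9 ± 8.94 FPKM in the control, a log2 fold change of 0.19. These 3 calls were stable. NDUFA11 was called higher (0.21, limma adjusted p = 0.0372), but the call was lost when control library 1, 2 or 3 was left out (adjusted p = 0.0889, 0.0816 and 0.0835). NDUFS5, the most abundant complex I transcript, stood at 334 ± 8.11 FPKM in the knockdown and 328 ± 13.5 FPKM in the control and was not called. NDUFA3, NDUFB10, NDUFB9 and NDUFB11 were not called either, with log2 fold changes from 0.05 to 0.18 on the deposited scale and from 0.29 to 0.43 after quantile normalization, under which all 4 were called higher.

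The matrix arm was split even among its catalytic core subunits, which carry the flavin and iron-sulphur clusters. Of the 16 subunits of this arm 6 were called lower, 3 higher and 7 were not called. NDUFV1, which binds NADH and the flavin, measured 38.5, 38.1 and 35 FPKM in the knockdown and 28.8, 28.5 and 31.4 FPKM in the control (log2 fold change 0.32, SE 0.0567, limma adjusted p = 0.00104). NDUFV2, its partner at the NADH site, measured 60.5, 57.0 and 60.2 FPKM in the knockdown and 86.5, 89.5 and 89.6 FPKM in the control (log2 fold change -0.57, SE 0.0405, limma adjusted p = 3.35e-06). The pair therefore moved in opposite directions, each without overlap of the groups and each in all 5 settings. NDUFS7, which carries the last iron-sulphur cluster before ubiquinone, had a fitted change of 0.31 with a wider error (SE 0.129), its groups overlapped and it was not called. The core subunits NDUFS1, NDUFS3 and NDUFS8 had log2 fold changes of -0.10, -0.04 and -0.16 and were not called.

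Of the 9 accessory subunits of the matrix arm 5 were called lower, 1 higher and 3 were not called. NDUFS4, whose loss causes Leigh syndrome, measured 46, 37.3 and 53.9 FPKM in the knockdown and 70.9, 73.4 and 67.3 FPKM in the control (log2 fold change -0.63, SE 0.112). Its knockdown values were spread more widely than its control values, and the groups did not overlap. NDUFA9, which sits where the arms join, was at 18.9 ± 1.82 FPKM against 27.5 ± 0.656 FPKM, and NDUFA6, a small LYR-motif subunit, at 14.3 ± 1.01 FPKM against 19.1 ± 1.01 FPKM. NDUFS4, NDUFA9 and NDUFA6 were stable in the lower direction. NDUFS6 was called lower (-0.23, limma adjusted p = 0.0215) and lost the call without knockdown library 1 or 3 or control library 1 or 3 (adjusted p from 0.0511 to 0.0664), and its value turned to 0.11 after quantile normalization. NDUFV3 was called higher (0.20) and lost the call without control library 2 (adjusted p = 0.0759). NDUFA2, NDUFA5 and NDUFA7 were not called, with log2 fold changes of 0.10, 0.15 and 0.02.

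**Figure D2:**
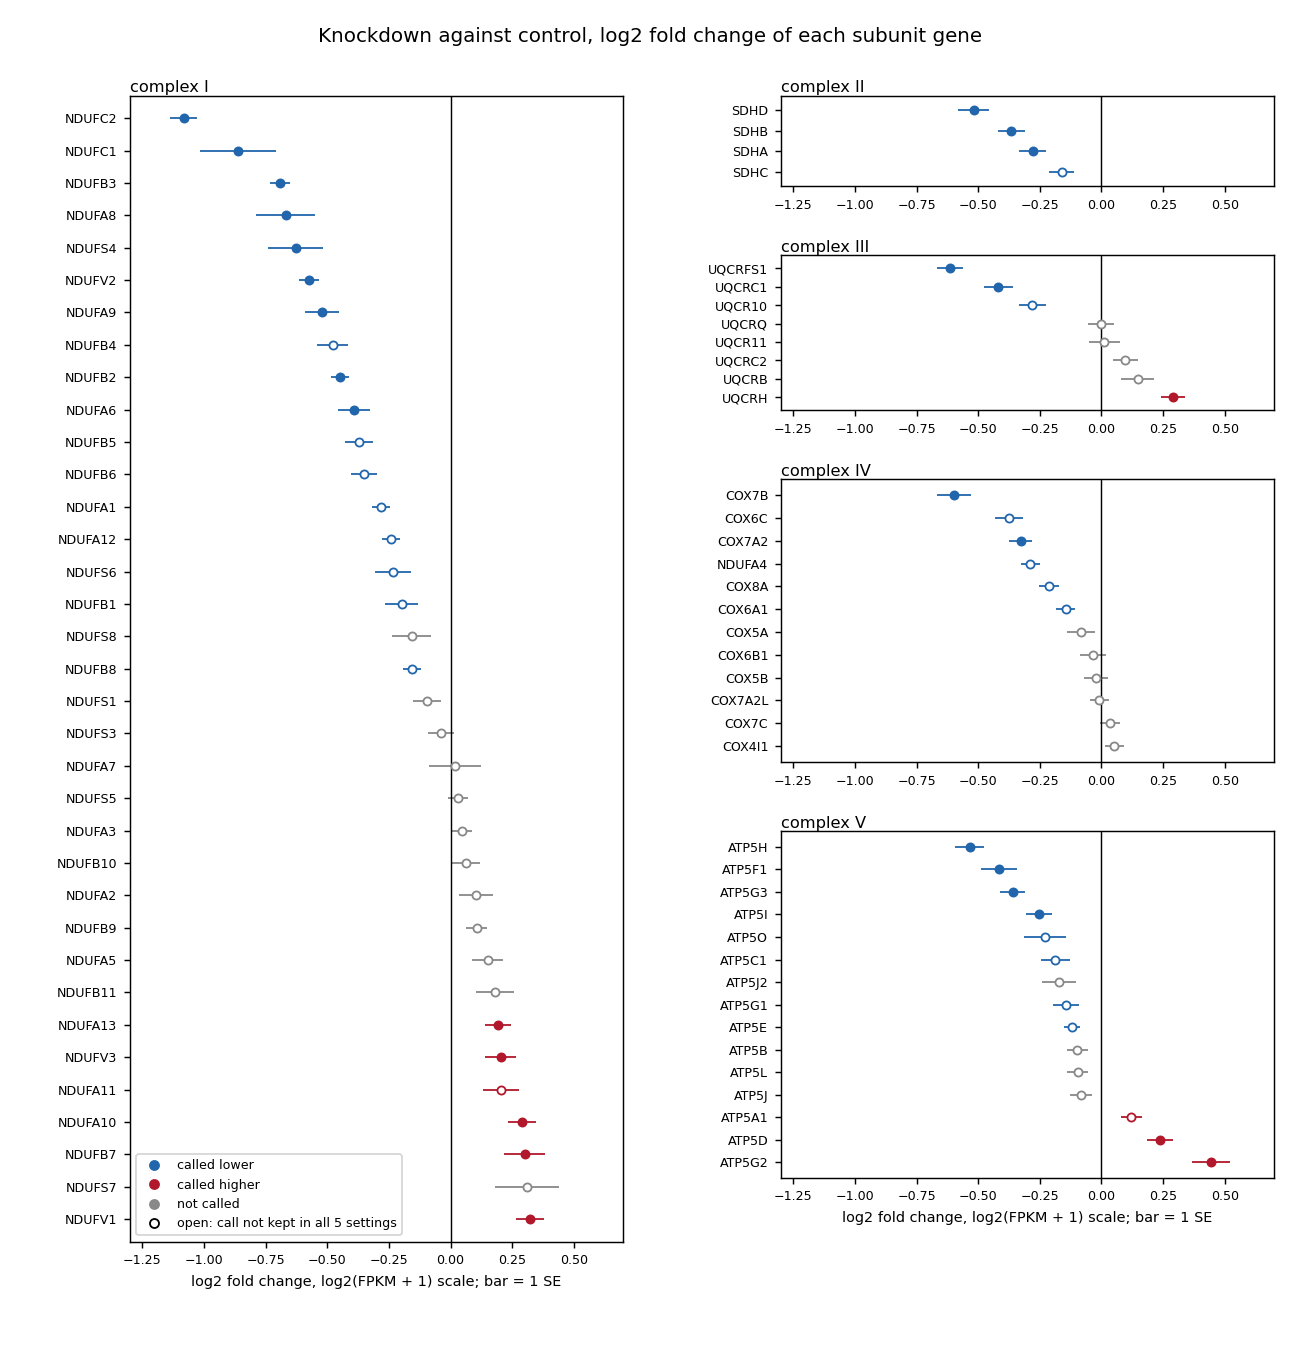
Log2 fold change (knockdown against control, log2(FPKM + 1) scale, bars 1 SE) of the main subunits by complex, 1 of them not shown; blue was called lower, red higher and grey not called, and filled points kept the call in all 5 settings. The complex I genes shown run from NDUFC2 at -1.08 to NDUFV1 at 0.32, and the 4 complex II genes all lie below 0 on the deposited scale, as 3 of the 4 do after quantile normalization.

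Complex II, succinate dehydrogenase, is also an enzyme of the tricarboxylic acid (TCA) cycle and has no mitochondrially encoded subunit. On the deposited scale its 4 genes were all called lower, with a median log2 fold change of -0.32, and after quantile normalization 3 of the 4 were called lower, with a median of -0.17. SDHA, the flavoprotein that oxidises succinate, measured 14.2, 15.4 and 15.4 FPKM in the knockdown and 19.3, 18.0 and 18.0 FPKM in the control (log2 fold change -0.28, SE 0.0556, limma adjusted p = 0.00208). SDHB, the iron-sulphur subunit, measured 23.8, 25.1 and 23.2 FPKM against 29.5, 31.2 and 33.1 FPKM (log2 fold change -0.37, SE 0.0558, limma adjusted p = 0.000442). Each knockdown value of these catalytic subunits lay below each control value. SDHD, a membrane anchor, showed the largest fall of the 4, with 27.2, 24.4 and 28.6 FPKM against 37.5, 40.5 and 38.2 FPKM (log2 fold change -0.52, SE 0.0630, limma adjusted p = 0.000107). SDHC, its partner in the membrane, measured 41.5, 38.9 and 43.8 FPKM against 47.0, 46.1 and 45.9 FPKM (log2 fold change -0.16, limma adjusted p = 0.0193). The SDHC call was the weakest: its log2 fold change became 0.09 after quantile normalization, and the adjusted p was 0.0703 without control library 1 and 0.0531 without control library 2.

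Complex III, the cytochrome bc1 complex, had 8 main subunits, of which 3 were called lower, 1 was called higher and 4 were not called (median log2 fold change 0.0046). After quantile normalization the balance turned, with 5 called higher and 2 lower (median 0.26). UQCRFS1, the Rieske iron-sulphur protein, measured 24.8, 22.9 and 24.5 FPKM in the knockdown and 35.2, 38.6 and 38.4 FPKM in the control (log2 fold change -0.61, SE 0.0544, limma adjusted p = 1.41e-05). UQCRC1, a core protein that faces the matrix, measured 27.8, 31.6 and 28.0 FPKM against 38.8, 38.2 and 40.7 FPKM (log2 fold change -0.42, limma adjusted p = 0.000267), whereas the other core protein, UQCRC2, measured 35.6, 33.2 and 34.9 FPKM against 31.9, 34.1 and 30.9 FPKM and was not called (log2 fold change 0.10). The UQCRC1 groups stood apart and the UQCRC2 groups overlapped. UQCR10, a small subunit, was called lower (-0.28) on the deposited scale and did not pass after quantile normalization (-0.03). UQCRH, the hinge protein that supports the docking of cytochrome c, was the most abundant transcript of the complex per length and the only one called higher on the deposited scale, with 464, 455 and 499 FPKM in the knockdown and 386, 403 and 369 FPKM in the control (log2 fold change 0.29, SE 0.0478, limma adjusted p = 0.000677). UQCRH rose and UQCRFS1 and UQCRC1 fell in all 5 settings. The small subunits UQCRQ, UQCR11 and UQCRB had log2 fold changes of -0.00, 0.01 and 0.15 and were not called. The copies UQCRHL and UQCRBP1 stood at 1.82 ± 0.604 and 3.00 ± 0.589 FPKM in the knockdown, with control levels of 1.16 ± 0.336 and 2.70 ± 0.307 FPKM. They were not called, and reads shared with UQCRH and UQCRB cannot be assigned between gene and copy.

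Complex IV, cytochrome c oxidase, had lower calls and no higher call on the deposited scale. Of its 12 tested members 6 were called lower and 6 were not called (median log2 fold change -0.11). Over all tested genes 66.3% were called in either direction. After quantile normalization 6 complex IV members were called higher and 2 lower (median 0.05). COX7B measured 176, 183 and 213 FPKM in the knockdown and 286, 279.9 and 300.2 FPKM in the control (log2 fold change -0.60, SE 0.0684, limma adjusted p = 7.27e-05). COX7A2, the isoform of subunit 7a that most tissues use, measured 201, 182 and 189 FPKM against 242, 245 and 232 FPKM (log2 fold change -0.33, limma adjusted p = 0.000248). In both genes each knockdown value lay below each control value, and these were the stable calls of the complex. COX6C and NDUFA4, the second of which was long counted with complex I and is now placed in complex IV, were at 72.0 ± 5.45 against 93.5 ± 1.85 FPKM and 63.9 ± 1.88 against 78.2 ± 1.90 FPKM, and neither call held after quantile normalization (log2 fold changes -0.13 and -0.03). COX8A and COX6A1 were called lower by small amounts (-0.21 and -0.15) and changed sign after quantile normalization (0.03 and 0.08).

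The subunits that were not called included the most abundant complex IV transcript. COX7C measured 532, 490.4 and 521 FPKM in the knockdown and 505, 487 and 513 FPKM in the control, with overlapping groups. COX4I1, the regulatory subunit that binds ATP, measured 246, 244 and 238 FPKM against 231, 227 and 243 FPKM. COX5A, COX5B and COX6B1 had log2 fold changes of -0.08, -0.02 and -0.03, with overlapping groups. COX7A2L, a relative of COX7A2 that joins complex III to complex IV in supercomplexes, stood at 78.4, 76.0 and 78.1 FPKM and 79.5, 79.3 and 75.2 FPKM and was not called. The ratio of COX7A2L to COX7A2, which a constant factor per library cannot alter, was 0.389, 0.418 and 0.413 in the knockdown and 0.329, 0.323 and 0.325 in the control, a log2 difference of 0.32 (exact two-sided permutation p = 0.1, adjusted p = 0.14 over 7 pairs of paralogues). The ratio was higher in 3 of 3 knockdown libraries than in any control library, at the smallest p the design allows.

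The 6 tissue isoforms of complex IV were at or near 0 in both arms and were not tested. COX6A2, of heart and skeletal muscle, and COX7B2, of testis, were listed at 0 in all 6 libraries. COX4I2, the isoform known for its response to low oxygen, ranged from 0.3 to 1.00 FPKM, COX7A1 from 0 to 0.632 FPKM, COX8C from 0 to 0.702 FPKM and COX6B2 from 0.127 to 0.314 FPKM. The ratios COX4I1/COX4I2 and COX6B1/COX6B2 did not separate the arms (exact two-sided permutation p = 0.6 and 0.2, adjusted p = 0.6 and 0.233 over 7 pairs). NDUFA4L2, a relative of NDUFA4 outside the symbol rule, was at 0.826, 1.30 and 0.816 FPKM in the knockdown and 0.580, 0.135 and 0.305 FPKM in the control, and the log2 ratio of NDUFA4 to NDUFA4L2 was lower by 2.02 on average in the knockdown (exact p = 0.1, adjusted p = 0.14), a value that rests on very low levels. The ratios COX6A1/COX6A2, COX7A1/COX7A2 and COX8A/COX8C were not computed because a library was listed at 0.

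**Figure D3:**
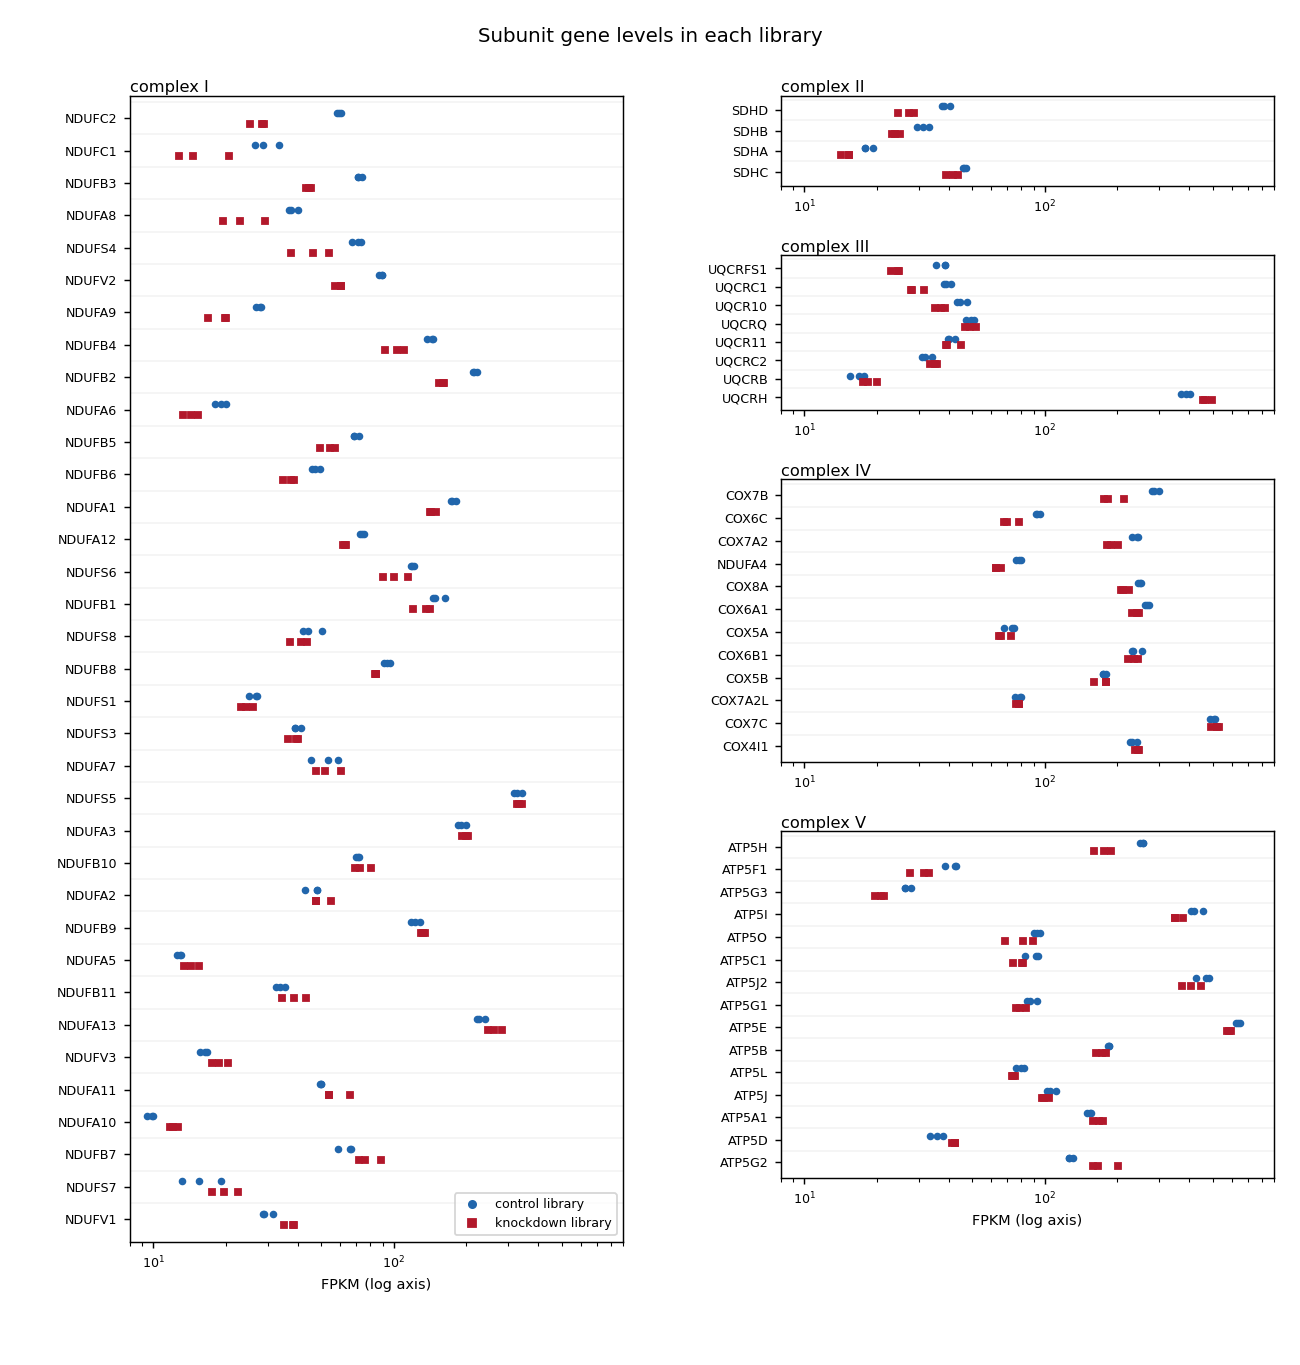
FPKM of the main subunits, 1 of them not shown, in each library, by complex, on a log axis; red points are the 3 knockdown and blue points the 3 control libraries. Control means run from 9.76 FPKM (NDUFA10) to 637 FPKM (ATP5E), and the 2 arms lie close together for most members.

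Complex V, the ATP synthase, pairs a rotating c ring in the membrane with the catalytic F1 head, held still by a peripheral stalk. Of its 15 main subunits 8 were called lower, 3 higher and 4 were not called (median log2 fold change -0.14), and after quantile normalization 5 were called lower and 6 higher (median 0.08). In the F1 head, ATP5D (delta) measured 41.2, 42.5 and 42.5 FPKM in the knockdown and 35.7, 33.3 and 37.7 FPKM in the control (log2 fold change 0.24, limma adjusted p = 0.00364). ATP5A1 (alpha) was also called higher (0.12, limma adjusted p = 0.0364), and it lost the call without any library other than knockdown library 2 (adjusted p from 0.0657 to 0.117). ATP5B (beta), which with alpha forms the catalytic sites, measured 174, 163 and 181 FPKM against 184, 185 and 186 FPKM and was not called (-0.10, limma adjusted p = 0.0766). ATP5C1 (gamma) and ATP5E (epsilon), the most abundant member per length, were called lower (-0.19 and -0.12). The ATP5C1 call was lost without knockdown library 1 or control library 1 or 2 (adjusted p = 0.0692, 0.0719 and 0.0767), the ATP5E call without control library 2 (adjusted p = 0.0556), and ATP5C1 turned positive after quantile normalization (0.08). Under the GC correction ATP5E turned to 0.048 (limma adjusted p = 0.328) and ATP5C1 was not called (limma adjusted p = 0.184).

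Of the 4 peripheral stalk genes 3 were called lower and 1 was not called. ATP5H (subunit d) measured 189, 160.3 and 177 FPKM in the knockdown and 257, 258 and 248 FPKM in the control (log2 fold change -0.53, SE 0.0582, limma adjusted p = 5.42e-05). ATP5F1 (subunit b) measured 31.6, 27.6 and 32.9 FPKM against 42.3, 42.9 and 38.4 FPKM (log2 fold change -0.42, limma adjusted p = 0.000967). Both fell without overlap and in all 5 settings. ATP5O, the subunit that confers oligomycin sensitivity, was called lower (-0.23, limma adjusted p = 0.0426) and lost the call in 5 of the 6 fits that left out a library, all except that without knockdown library 3 (adjusted p from 0.0501 to 0.117), and its value turned to 0.06 after quantile normalization. ATP5J (subunit F6) was not called (-0.08). Among the membrane subunits e, f and g, ATP5I (e) fell from 426 ± 25.9 to 357 ± 16.1 FPKM and was stable, and ATP5J2 (f) and ATP5L (g) were not called (-0.17 and -0.10).

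The c ring is built from a single mature protein, subunit c, which ATP5G1, ATP5G2 and ATP5G3 all encode with different import sequences. ATP5G2 (chr12:53665170-53681423, GRCh38) measured 167, 201 and 159 FPKM in the knockdown and 131, 127 and 127 FPKM in the control, the largest rise of any main subunit (log2 fold change 0.45, SE 0.0784, limma adjusted p = 0.00103). ATP5G1 (chr17:48892787-48895871) measured 75.7, 83.6 and 79.2 FPKM against 92.9, 84.1 and 86.8 FPKM (log2 fold change -0.14, limma adjusted p = 0.0375), and ATP5G3 (chr2:175176258-175181710) 20.8, 19.8 and 21.4 FPKM against 26.3, 27.8 and 26.2 FPKM (log2 fold change -0.36, limma adjusted p = 0.000257). The rise of ATP5G2 and the fall of ATP5G3 were stable. The ATP5G1 call was lost under 4 of the 6 leave-one-out fits, those without knockdown library 1 or 3 or control library 1 or 3 (adjusted p from 0.0719 to 0.149), and its sign turned after quantile normalization (0.13).

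The balance among the 3 genes shifted in each library. ATP5G2 gave 63.6% ± 2.41 (SD, n = 3) of the FPKM summed over the 3 genes in knockdown libraries and 52.8% ± 0.348 in control libraries, ATP5G1 gave 28.9% ± 1.54 and 36.2% ± 0.914, and ATP5G3 gave 7.54% ± 0.927 and 11% ± 0.581. The ATP5G2/ATP5G1 ratio was 2.21, 2.41 and 2.01 in the knockdown and 1.41, 1.51 and 1.46 in the control, a log2 difference of 0.59 (exact two-sided permutation p = 0.1, adjusted p = 0.14 over 7 pairs). The ATP5G2/ATP5G3 ratio was 8.05, 10.2 and 7.44 in the knockdown and 4.99, 4.56 and 4.84 in the control, a log2 difference of 0.82 with the same p-values. The ATP5G1/ATP5G3 ratio differed by 0.23 with the same p-values. The ratios were higher in 3 of 3 knockdown libraries, and 0.1 is the smallest p that 3 against 3 libraries can give.

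**Figure D4:**
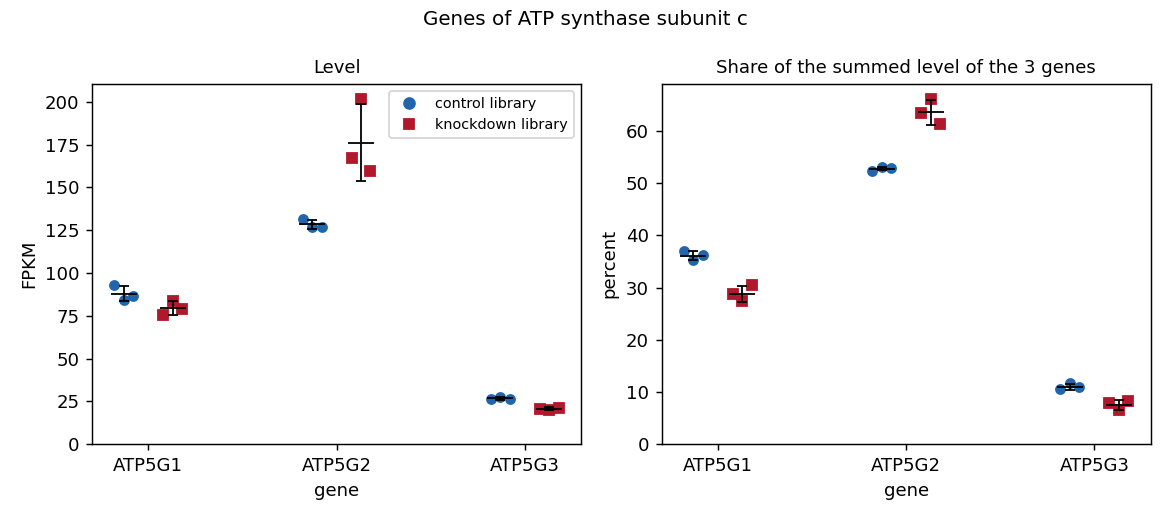
The genes for ATP synthase subunit c: FPKM of each gene by library and the share of each gene in their summed FPKM, with the mean and SD of 3 libraries per arm. ATP5G2 holds 63.6% of the sum in knockdown against 52.8% in control libraries, and the libraries of the 2 arms do not overlap.

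The copies ATP5EP2, listed at 0 in all libraries, and ATP5L2, at 0.661 FPKM or less, were not tested. ATP5S and ATP5SL are no subunits of the synthase. ATP5S measured 5.56, 5.62 and 5.02 FPKM in the knockdown and 3.86, 3.89 and 4.33 FPKM in the control (log2 fold change 0.35, limma adjusted p = 0.00291) and was higher in all 5 settings, and ATP5SL, now named DMAC2, was not called (-0.03).

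Summed over its main subunits, complex I stood at 2689 ± 59.7 FPKM (SD, n = 3) in the knockdown and 2941 ± 27.1 FPKM in the control, a ratio of 0.914. Complex II was at 107 ± 3.57 against 135 ± 1.31 FPKM (ratio 0.796), complex IV at 2282 ± 65.4 against 2516 ± 45.1 FPKM (0.907) and complex V at 2550.1 ± 29.1 against 2805 ± 38.0 FPKM (0.909). Complex III was higher, at 706 ± 19.2 against 647 ± 15.1 FPKM (1.09), a sum in which UQCRH held most of the FPKM. The 75 main subunits together were at 8335 ± 12.1 FPKM in the knockdown and 9042 ± 36.4 FPKM in the control, a ratio of 0.922. The arms did not overlap in any of these sums. Sums weight abundant genes and follow the scaling of the deposited values, on which quantile normalization turned the medians of complexes I, IV and V.

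On the deposited scale the direction of the change went in part with the base composition of the transcripts. The median GC content was 55.1% over the 12 members called higher, 45.3% over the 38 called lower and 52.0% over the 29 not called. The ranges overlapped widely, from 40.38% to 69.61% for members called higher and from 38.69% to 59.55% for those called lower. Across the 79 tested members the log2 fold change and the GC content had a Spearman correlation of 0.35 (Pearson 0.37), and across 13053 tested genes with a GC value it was 0.17 (Pearson 0.11). These are correlations across genes of the same libraries, and genes are not independent replicates. Over all tested genes the median log2 fold change ran from -0.16 in the tenth of genes with the lowest GC content to 0.11 in the tenth with the highest. The part of GC content in the calls was not tested. Of the 50 calls 45 were kept under the GC correction. ATP5C1, ATP5O, NDUFB1 and SDHC lost theirs (limma adjusted p = 0.184, 0.0565, 0.068 and 0.0796), and ATP5E changed sign. Under this correction 5 members gained a call, COX7C, NDUFA5, UQCRB and UQCRC2 as higher and NDUFS8 as lower.

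**Figure D5:**
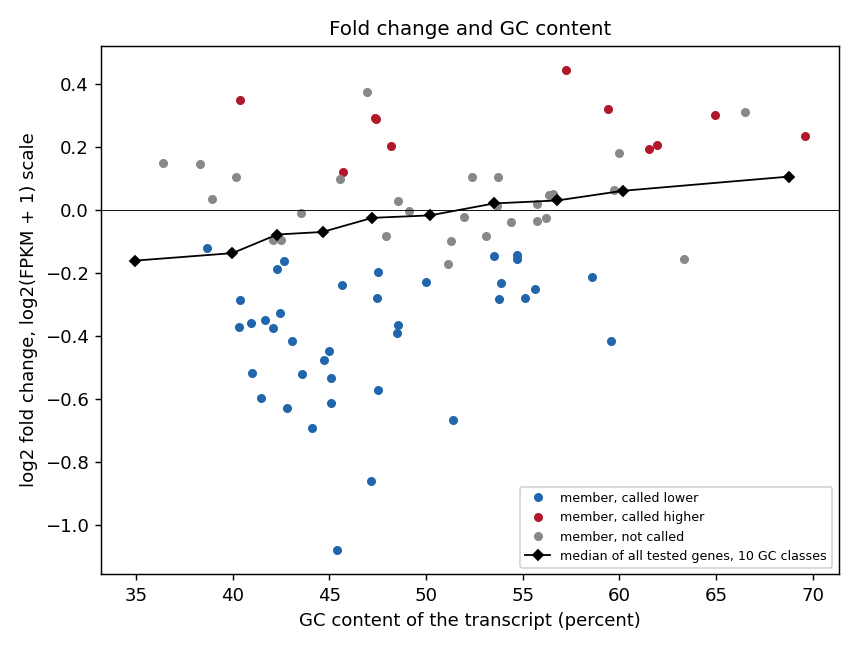
Transcript GC content (x axis, percent) and log2 fold change (y axis, knockdown against control) of the tested members, 1 of them not shown, with the median of all tested genes in 10 classes of GC content. Members called higher have a median GC content of 55.1% and those called lower 45.3%, and the line of all genes climbs from -0.16 to 0.11.

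A list of genes outside the symbol rule held further subunits, the carrier gene CYCS and ATPIF1, which encodes an inhibitor of the ATP synthase. Of 6 tested genes 4 were called lower and none higher, with a median log2 fold change of -0.30 (-0.09 after quantile normalization, with 3 lower and 2 higher). CYCS, which encodes the electron carrier cytochrome c, was at 23.9 ± 1.32 FPKM against 38.1 ± 1.47 FPKM (-0.65), NDUFAB1, the acyl carrier protein of complex I, at 77.0 ± 4.52 against 104 ± 5.38 FPKM (-0.43), and USMG5, a small ATP synthase subunit, at 452 ± 49.9 against 563 ± 18.0 FPKM (-0.32). ATPIF1 was at 77.3 ± 3.80 against 94.5 ± 5.77 FPKM (-0.28, and -0.02 after quantile normalization). CYC1, the cytochrome c1 subunit of complex III, was at 24.7 ± 0.552 against 24.9 ± 0.452 FPKM and was not called. C14orf2, a small ATP synthase subunit, was not called either (-0.04). Among the tested subunits of this list NDUFAB1 and USMG5 were thus called lower, and CYC1 and C14orf2 were not called.

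Over all tested genes 30.5% were called higher and 35.9% lower on the deposited scale. After quantile normalization 5390 of 13434 were called higher and 3769 lower. The lists were not tested against these shares. Factors that assemble the complexes were called in both directions on the deposited scale. Of 16 complex I assembly factors 4 were called higher and 4 lower (median log2 fold change -0.03), among them ECSIT, which rose (0.63), and NDUFAF2 and NDUFAF1, which fell (-0.60 and -0.39), and after quantile normalization 6 were called higher and 2 lower (median 0.15). Of 36 assembly factors of complexes II to V 6 were called higher, 7 lower and 23 were not called (median -0.02), and after quantile normalization 13 were called higher and 5 lower (median 0.12). The largest changes were falls in the small cysteine-rich proteins CMC2, COA6 and CMC1 (-0.94, -0.80 and -0.68), which serve complex IV assembly. Of 21 tested regulators of mitochondrial biogenesis and genome maintenance 4 were called higher, 5 lower and 12 were not called (median 0.07), and after quantile normalization 9 were called higher and 1 lower (median 0.12). Without knockdown library 2 the count of higher calls was 7, and the count of lower calls was 3 without control library 1, without control library 2 or with the replicate number as a block. C10orf2, the mitochondrial DNA helicase, POLG2, the accessory subunit of its polymerase, and MTERF4 rose (0.59, 0.49 and 0.45). MTERF2 was also called higher (0.25). The calls in the lower direction were SSBP1, which binds single-stranded mitochondrial DNA (-0.32), GABPB1, a subunit of GABP (-0.28, limma adjusted p = 0.0116), CHCHD2 (-0.22), MTERF3 (-0.19) and YY1 (-0.14, limma adjusted p = 0.0367). After quantile normalization the YY1 value turned to 0.05, and those of SSBP1 and GABPB1 were -0.04 and -0.18. The gene of the NRF1 factor itself and GABPA, the DNA-binding subunit of GABP, were not called (0.08 and -0.24), and PPARGC1A, which encodes a coactivator of these genes, was too low to be tested.

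On the deposited scale 35.9% of all tested genes were called lower and 30.5% higher. Of 18 TCA cycle and pyruvate dehydrogenase genes 10 were called lower and 3 higher, with a median log2 fold change of -0.23. After quantile normalization 6 of these genes were called lower and 4 higher, with a median of -0.01. The sentence that follows is on the deposited scale. The count of higher calls was 0 without knockdown library 3 or any 1 of the control libraries and with the replicate number as a block, and 1 without knockdown library 1, while 10 were called lower in each of these fits. SUCLG2, IDH3A and FH, enzymes of the cycle, fell (-0.65, -0.57 and -0.56). Of 25 genes of mitochondrial import, outer membrane channels and chaperones 12 were called lower and 5 higher (median -0.07), and after quantile normalization 6 were called lower and 11 higher (median 0.08). TIMM17A of the inner membrane translocase, the channel gene VDAC1 and the chaperonin gene HSPE1 had the largest falls (-0.95, -0.84 and -0.63), which were -0.71, -0.54 and -0.31 after quantile normalization.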

How the data were processed

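The authors deposited FPKM per gene for 6 poly(A) libraries. The submitters' processing notes name hg38, TopHat2 2.1.0, SAMtools and Cuffdiff 2.2.1 without saying how each was set. Neither the gene annotation nor the use of strand is stated there, and reads of overlapping genes and near-identical copies cannot be resolved. A pseudocount of 1 was added and log2 was taken of the deposited values, which shrinks the change of weakly expressed genes. A gene was tested from a mean of 1 FPKM over the libraries, by limma 3.58.1 in R 4.3.3 (intensity trend, moderated two-sided test, Benjamini-Hochberg adjustment over 13434 genes). FPKM hold no read counts, and relative depth is the most frequent ratio between libraries among the lowest values. In simulated data of 13434 genes 60% of 50 genes altered by 1.25-fold were recovered, as were 90% of 50 at 1.5-fold. At 2-fold and 4-fold 100% were recovered, and 11 of 186 calls were false. The simulation drew independent normal noise around the control means, and only genes above the lowest levels were altered. It held no difference in scaling, composition or GC content between arms. Far fewer genes were altered than the 66.3% called in the real data, so its rates do not carry over. Same-numbered libraries did not deviate together (correlations -0.0185, -0.185 and -0.0911 over 13434 genes). Positions and promoter windows are from RefSeq on GRCh38.p14, and GC content from GENCODE v29 transcripts. Ratios of paralogues were compared by exact permutation in Python 3.11.15 with scipy 1.17.1.

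Members and gene lists were chosen with earlier results of these data known. Per complex, the named genes were the 4 largest called rises and falls without overlap, the most abundant member, all paralogue sets, each tested member that was not called or was called against the majority, and up to 3 called members of each other list; further genes were named after their values were seen. Alternatives were pseudocounts of 0.1 and 0.5, no filter or a minimum mean of 5 FPKM, 3 rescalings, a replicate block, limma fits that were robust or had no trend, and removal of each library in turn; the GC correction was added after seeing the data. The counts cover all members, and 1 gene that the rule names is not reported here.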

Additional observations from a re-analysis of the deposited data

How the results depend on the processing

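The calls held under most settings and turned mainly with quantile normalization, under which 35 members were called higher and 21 lower. Its medians were 0.12 for complex I, 0.054 for complex IV and 0.096 for complex V with its copies. Log2 fold changes that were negative on the deposited scale became 0.15 for ATP5B, 0.082 for ATP5C1, 0.13 for ATP5G1, 0.25 for ATP5J, 0.16 for ATP5L, 0.058 for ATP5O, 0.096 for ATP5SL, 0.18 for COX5A, 0.24 for COX5B, 0.081 for COX6A1, 0.20 for COX6B1, 0.25 for COX7A2L, 0.026 for COX8A, 0.022 for NDUFA12, 0.10 for NDUFB1, 0.12 for NDUFB8, 0.080 for NDUFS1, 0.21 for NDUFS3, 0.11 for NDUFS6, 0.10 for NDUFS8, 0.092 for SDHC and 0.26 for UQCRQ, and COX7C went from positive to -0.00032. The GC correction, added after seeing the data, gave 0.048 for ATP5E, 0.068 for COX7A2L, -0.0052 for NDUFA7, -0.0030 for UQCR11 and 0.026 for UQCRQ. Equal column sums gave -0.013 for NDUFA7, -0.0015 for NDUFS5 and -0.019 for UQCR11, and median-of-ratios 0.0029 for UQCRQ. The cause was not tested. The ratios with COX4I2, COX6B2 or NDUFA4L2 have no value after quantile normalization, since these genes were not tested.

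Without each library in turn, 9 to 14 members were called higher and 33 to 40 lower, and 40 of the 50 called members kept the call in all 6 fits, with 0 of the 50 turned. Values ran from -0.079 to 0.060 for ATP5SL, -0.051 to 0.031 for COX5B, -0.069 to 0.012 for COX6B1, -0.035 to 0.0047 for COX7A2L, -0.082 to 0.10 for NDUFA7, -0.067 to 0.0052 for NDUFS3, -0.053 to 0.049 for UQCR11 and -0.042 to 0.036 for UQCRQ, and these genes were not called on the deposited scale. The complex III median was -0.019 to 0.063. With the replicate number as a block, 11 members were called higher and 37 lower, and ATP5A1 and ATP5G1 lost their calls. The labels do not say that a number marks a pair, so the libraries share only a number. Depth was lowest in knockdown library 2, and genes with a mean under 1 FPKM were not tested by limma.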
